A study of Mus musculus with 24 samples.

Results

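The receptors of the TGF-beta superfamily were followed through 3 comparisons of mouse embryonic brain cells from mice with a floxed Alk5, the receptor gene now called Tgfbr1. The 10 genes were chosen by name as the receptors of TGF-beta, activin and BMP ligands: the type I receptors Tgfbr1, Acvrl1, Acvr1 and Acvr1b, the type II receptors Tgfbr2, Acvr2a, Acvr2b and Bmpr2, and the co-receptors Tgfbr3 and Eng. They are 10 of the 25471 genes named in any of the 3 tables, and all 10 had an adjusted p-value in each. No measured value entered the choice of genes, although it was made with earlier results of these data known.

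Messenger RNA was sequenced in 24 libraries of cells sorted by flow cytometry from embryonic brain. Mutants were Pdgfrb-Cre, Alk5(flox/flox), Zs/+ embryos, marked as having GMH-IVH, and controls were Pdgfrb-Cre, Alk5(flox/+), Zs/+ embryos, marked as normal. Pericytes were sampled at E11.5 from 4 mutants and 4 controls and at E13.5 from 4 mutants and 4 controls, and microvascular endothelial cells at E13.5 from 3 mutants and 5 controls. All groups thus carry Cre and the ZsGreen reporter, and the controls carry 1 floxed Alk5 copy where the mutants carry 2. Pdgfrb drives Cre in pericytes and also in other mural and mesenchymal cells, and the labels give the sorted pericytes the cell type mesenchymal cells. The stated purpose was to find pericyte genes that depend on ALK5 while brain vessels form.

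A ligand of this superfamily binds a pair of type II and a pair of type I serine/threonine kinase receptors, and the type II kinase activates the type I kinase, which phosphorylates SMAD proteins. TGFBR1 (ALK5), ACVR1B (ALK4) and their relatives act on SMAD2 and SMAD3, whereas ACVRL1 (ALK1) and ACVR1 (ALK2) act on the BMP-type SMADs. Co-receptors such as betaglycan (TGFBR3) and endoglin (ENG) present ligands. In human blood vessels, loss of ENG or ACVRL1 function causes hereditary haemorrhagic telangiectasia and BMPR2 mutations cause heritable pulmonary arterial hypertension.

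The sequences before the start sites of 3 receptors are shown because these receptors stand first in the results: Tgfbr1 as the targeted gene, Tgfbr2 as its type II partner and Eng as the receptor with the highest level in endothelial cells. They come from RefSeq (GRCm38.p6, the assembly of mm10), end before the first annotated exon, and run 5' to 3' on the gene's strand. Capitals mark the SMAD-binding letters CAGAC, read on either strand as CAGAC or GTCTG, and the BMP-type SMAD letters GGCGCC, which read the same on both strands.
Tgfbr1, chr4:47352972-47353221, plus strand: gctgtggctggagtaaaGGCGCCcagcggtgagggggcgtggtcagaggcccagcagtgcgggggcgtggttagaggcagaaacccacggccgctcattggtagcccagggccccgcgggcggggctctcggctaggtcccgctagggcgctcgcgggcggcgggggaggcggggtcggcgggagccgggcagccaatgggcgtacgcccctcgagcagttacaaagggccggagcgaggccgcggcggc
Tgfbr2, chr9:116175361-116175613, minus strand: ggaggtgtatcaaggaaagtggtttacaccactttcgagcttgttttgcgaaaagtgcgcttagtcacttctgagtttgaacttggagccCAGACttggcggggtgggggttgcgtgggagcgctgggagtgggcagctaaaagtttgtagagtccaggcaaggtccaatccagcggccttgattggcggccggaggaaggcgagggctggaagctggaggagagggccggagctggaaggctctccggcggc
Eng, chr2:32646345-32646594, plus strand: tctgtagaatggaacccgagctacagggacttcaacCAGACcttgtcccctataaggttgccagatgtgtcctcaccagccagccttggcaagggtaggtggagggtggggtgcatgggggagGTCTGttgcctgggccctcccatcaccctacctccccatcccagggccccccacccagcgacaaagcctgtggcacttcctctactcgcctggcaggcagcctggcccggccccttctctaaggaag
The Tgfbr1 stretch held GGCGCC once and CAGAC in neither reading, Tgfbr2 held CAGAC once and Eng held it in both readings, 2 matches in all. RefSeq windows of 250 bases before to 50 after the start were found for 8 of the 10 receptors, 9 windows in all, with none matched for Tgfbr3 and Acvrl1. Tgfbr1 had 2 of these windows, and only the sequence before its first start is shown above. The window of its second start held the SMAD-binding letters once and lacked the BMP-type SMAD letters. CAGAC was in 5 of the 9 windows and in 49.6% of all 32851 promoter windows, and GGCGCC was in 3 of the 9 and in 11.9% of all. The receptor windows were rich in G and C, with a median of 73.3% and a range of 52.0% to 83.7%, against a median of 52.7% over all windows. They held a median of 27 CpG, against 7 over all windows. A match is a description of letters and not a binding site.

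The values used were the authors' least-squares means of normalized counts per group, their ratio and their p-value, so that the spread and depth of single libraries were not analysed here. The standard error (SE) of a log2 ratio is the one implied by the authors' ratio and p-value, and an adjusted p is the authors' deposited FDR, which is the Benjamini-Hochberg value; genes with an adjusted p under 0.05 are those called. Endothelial markers in E13.5 control endothelial cells had a median level of 6314, at the 97.6th percentile of their table, whereas pericyte markers stood at the 46.5th. Erythroid markers stood at the 93.8th percentile in these controls and the 99.8th in mutant endothelial cells. Myeloid markers stood at the 68.3rd in controls and the 85.3rd in mutants. In control pericytes, endothelial markers stood at the 44.3rd percentile at E11.5 and the 38.0th at E13.5. In control pericytes, pericyte markers stood at the 73.5th percentile at E11.5 and the 81.8th at E13.5, and markers of fibroblasts and meninges stood higher, at the 94.7th and 98.3rd. Pdgfrb itself had means of 4474 in mutant and 4200 in control E11.5 pericytes, 7973 in mutant and 7160 in control E13.5 pericytes, and 181 in mutant against 207 in control endothelial cells by the authors' deposited tables. Pecam1, which marks endothelial cells, had means of 17262 in mutant and 20006 in control endothelial cells by the authors' deposited table. In bulk RNA, fewer cells of a type and less RNA per cell cannot be told apart. All receptor genes except Tgfbr1 and Tgfbr2 overlap another annotated gene, Eng for example Fpgs and Acvr2a Orc4, and reads of such pairs may be mixed, since the strand setting of the counting is not given in the sources used here.

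Tgfbr1 is the gene targeted in the mutants. It lies on chromosome 4 (chr4:47353222-47414931, plus strand, mm10; 9 exons in its longest coding transcript) and overlaps no other annotated gene. Its mean was 6196 in mutant and 4609 in control E11.5 pericytes, 5823 in mutant and 5700 in control E13.5 pericytes, and 2849 in mutant and 3066 in control endothelial cells by the authors' deposited tables. Its log2 ratio passed the threshold in no comparison, and its 95% interval from the implied SE ran from -0.10 to 0.95 in E11.5 pericytes, from -0.12 to 0.19 in E13.5 pericytes and from -0.56 to 0.35 in endothelial cells. A value over the whole gene does not resolve the floxed part, so it checks neither the deletion nor the labels.

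Of the 10 receptors, the most abundant were Eng and Acvrl1 in endothelial cells and Tgfbr1 in pericytes, in mutants and in controls. Levels of different genes were compared as the authors' group mean per kilobase of the longest coding transcript, with a gap between neighbours called clear when it exceeded 2 implied SE. The SE of a gap treats the genes as independent, although they were measured in the same libraries. It also leaves out the uncertainty of transcript length. In E13.5 endothelial cells Eng led with 2653 per kilobase in mutants and 3344 in controls, computed from the authors' deposited table, and Acvrl1 came second with 866 in mutants and 1059 in controls. Tgfbr1, with 495 per kilobase in mutants and 533 in controls, and Tgfbr2, with 411 in mutants and 497 in controls, followed and did not differ beyond 2 implied SE in either genotype. Bmpr2 stood clearly below these, at 219 per kilobase in mutants and 268 in controls. Acvr1, Acvr2a and Tgfbr3 lay close together between 127 and 150 per kilobase in mutants and between 168 and 192 in controls. With the mean length of all coding transcripts in place of the longest, Tgfbr3 stood above Bmpr2. Tgfbr3 then had 228 per kilobase in mutants and 345 in controls, and Bmpr2 219 in mutants and 268 in controls. Acvr1b and then Acvr2b, an activin type II receptor at 21.0 per kilobase in mutants and 26.9 in controls, stood last.

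In pericytes Tgfbr1 led the 10 receptors at both stages. At E11.5 it had 1076 per kilobase in mutants and 801 in controls, computed from the authors' deposited table, followed by Tgfbr3 with 447 in mutants and 349 in controls and Acvr2a with 251 in mutants and 217 in controls, each clearly apart from the next. Tgfbr2, Bmpr2, Acvr2b, Eng and Acvr1b came next in controls, between 149 and 107 per kilobase, with no neighbours differing beyond 2 implied SE, and Acvrl1 (75.3) and Acvr1 (74.4) stood last together. In E11.5 mutants Acvr1 stood alone at the bottom, at 31.7 per kilobase, clearly below Acvrl1 at 80.7. At E13.5 Tgfbr1 again led, with 1012 per kilobase in mutants and 990 in controls. In E13.5 controls Bmpr2 (505), Acvr1 (471), Tgfbr2 (444) and Tgfbr3 (413) followed with no neighbours apart beyond 2 implied SE, and in E13.5 mutants Tgfbr3, at 574 per kilobase, stood clearly above Bmpr2 at 469. Acvr2b and Acvrl1 closed the order at E13.5, between 115 and 122 per kilobase in both genotypes. With the mean length of all coding transcripts in place of the longest, Tgfbr3 came second in E13.5 control pericytes too. Acvrl1 then moved to the middle of the order in pericytes. Of the 10, Tgfbr1 in pericytes and Eng in endothelial cells stayed first.

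**Figure D1:**
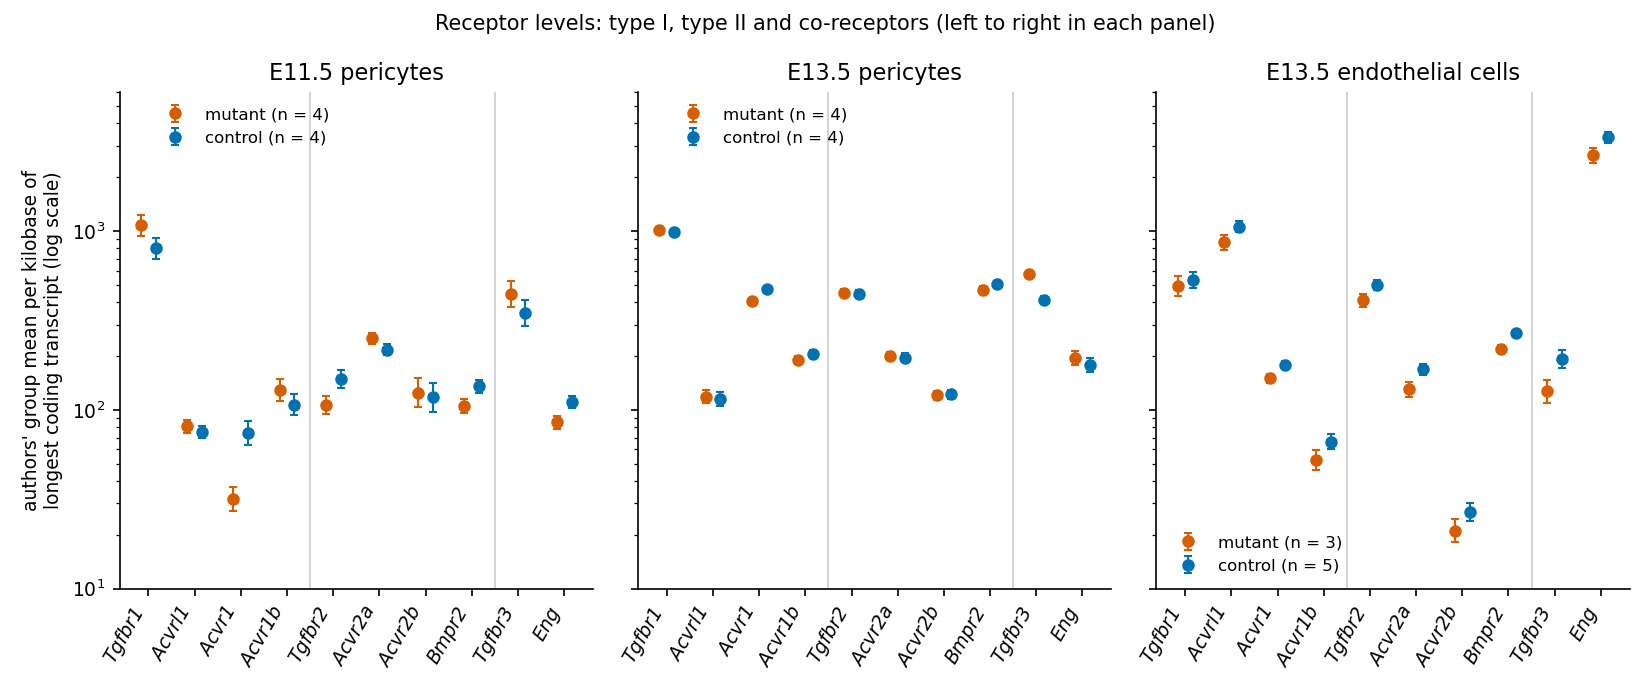
Level of each receptor as the authors' group mean per kilobase of the longest coding transcript (log scale), in mutants (orange) and controls (blue), with grey lines parting type I receptors, type II receptors and co-receptors. Bars are 1 implied SE, the SE of the log2 ratio shared out by the number of samples per group. Of the 10, Tgfbr1 led in pericytes and Eng, at 2653 in mutants and 3344 in controls, in endothelial cells.

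As a share of the 4 type I receptors per kilobase, Tgfbr1 made up 81.7% in mutant and 75.7% in control E11.5 pericytes and 58.6% in mutant and 55.6% in control E13.5 pericytes. In endothelial cells Acvrl1 held the larger share, 55.4% in mutants and 57.7% in controls, and Tgfbr1 held 31.7% in mutants and 29.0% in controls. The ratio of Tgfbr1 to Acvrl1 per kilobase was 0.572 in mutant and 0.503 in control endothelial cells, and 8.55 in mutant and 8.62 in control E13.5 pericytes. Adding the type I receptors Bmpr1a, Bmpr1b and Acvr1c, which lie outside the 10, lowered the Tgfbr1 share to 65.4% in mutant and 56.5% in control E11.5 pericytes and to 35.7% in mutant and 33.8% in control E13.5 pericytes. Bmpr1a, a BMP receptor, then held 36.1% in mutant and 35.8% in control E13.5 pericytes, slightly above Tgfbr1 in both. Its coding transcripts have a shorter mean length (2322.5 bases) than those of Tgfbr1 (3039.75 bases). The share of Bmpr1a by mean length was not computed. The gap between the 2 shares was not set against the implied SE. In endothelial cells Bmpr1a held 1.49% in mutants and 1.69% in controls.

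Among the 4 type II receptors, Acvr2a held the largest share at E11.5, 42.7% in mutants and 35.0% in controls. Bmpr2, with 37.8% in mutants and 39.9% in controls, and Tgfbr2, with 36.4% in mutants and 35.1% in controls, shared the lead in E13.5 pericytes. With the mean transcript length Tgfbr2 led there, with 43.1% in mutants and 41.8% in controls. Bmpr2 then held 32.0% in mutants and 33.9% in controls. In E11.5 controls Acvr2a then held 30.1% and Tgfbr2 28.9%. Tgfbr2 held 52.6% in mutant and 51.8% in control endothelial cells. Of the 2 co-receptors, Tgfbr3 held 4.56% in mutant and 5.44% in control endothelial cells, against 74.6% in mutant and 69.7% in control E13.5 pericytes, so that endothelial cells carried mostly Eng and pericytes mostly Tgfbr3. These shares are descriptions of group means and have no test.

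**Figure D2:**
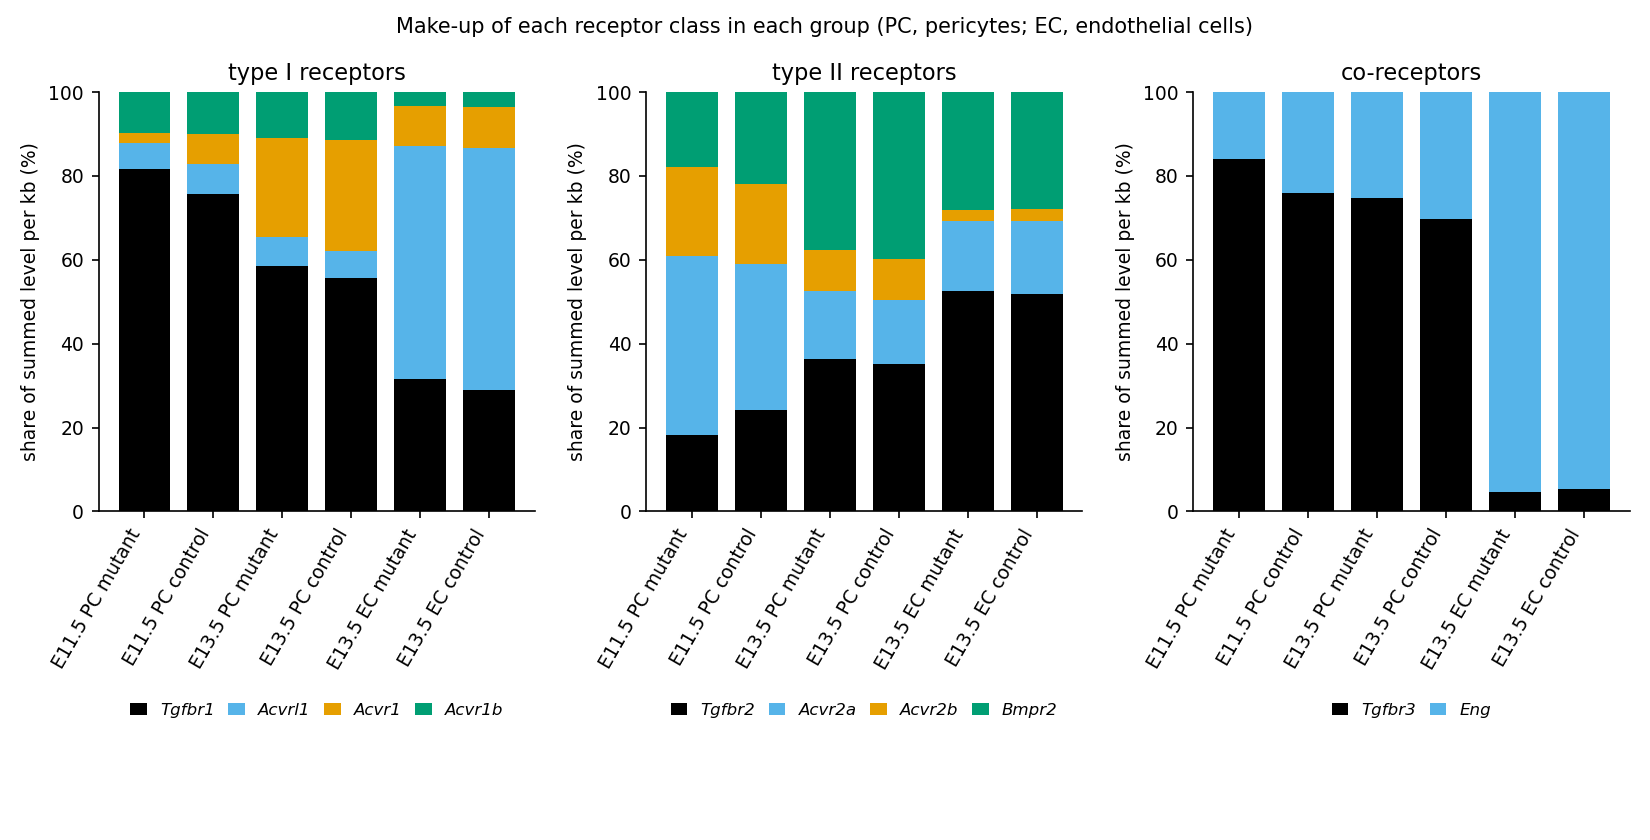
Share of each receptor in the summed level per kilobase of its class (percent), for mutants and controls of E11.5 pericytes (PC), of E13.5 pericytes and of endothelial cells (EC) at E13.5. Of the receptors shown, Acvrl1 and Eng took the largest share of their class in endothelial cells. Acvrl1 held 55.4% of type I receptors in mutants and 57.7% in controls. In pericytes Tgfbr1 and Tgfbr3 took the largest share. With Bmpr1a, Bmpr1b and Acvr1c added, not shown, Bmpr1a stood slightly above Tgfbr1 in E13.5 pericytes. It held 36.1% against 35.7% in mutants and 35.8% against 33.8% in controls.

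The tables were normalized separately, so levels were set across them by their rank among all genes of a table and by their part of the table's summed means. By rank, 3 of the 10 receptors stood higher in E13.5 control endothelial cells than in E13.5 control pericytes: Eng at the 99.0th and 67.5th percentile, Acvrl1 at the 95.2nd and 60.5th, and Tgfbr2 at the 95.5th and 94.4th. The largest shifts to pericytes were those of Acvr2b, at the 33.0th percentile in endothelial cells and the 59.2nd in pericytes, and Acvr1b, at the 51.3rd in endothelial cells and the 74.8th in pericytes. Per summed mean, Acvrl1 in control pericytes reached 9.00% and Eng 4.45% of its level in endothelial cells. Over 17 endothelial markers with a value in both tables the same figure had a median of 1.43%, with 2 markers above Acvrl1 and 3 above Eng. It was 0.720% for the VEGF receptor Kdr and 3.65% for Cdh5, the cadherin of endothelial junctions. The lowest was 0.379% for Mmrn2 and the highest 209% for Erg, which thus stood higher in control pericytes. The part of endothelial RNA in the pericyte levels of Acvrl1 and Eng was not tested. Between the stages, Acvr1 stood at the 84.2nd percentile in E13.5 control pericytes and the 53.2nd at E11.5, a 3.81-fold larger part of the summed means at E13.5. Bmpr2 made up a 2.24-fold and Tgfbr2 a 1.80-fold larger part at E13.5 than at E11.5. By this part 4 of the 10 receptors stood higher in E13.5 than in E11.5 control pericytes, and by rank 6 did. Of those lower, the E13.5 part was 0.543 of the E11.5 part for Acvr2a, 0.626 for Acvr2b, 0.712 for Tgfbr3 and 0.745 for Tgfbr1.

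At E11.5, 1 of the 10 receptors was called in pericytes, where 3.35% of all 19301 tested genes were called and 2.7% were called lower. Of the 10, 4 had a log2 ratio below 0, where 50.4% of all genes did. Acvr1, the BMP and activin type I receptor also known as ALK2 (chr2:58388644-58567157, minus strand), averaged 104 in mutants against 245 in controls by the authors' deposited table, a 2.35-fold lower level in mutants. Its log2 ratio was -1.23 (SE 0.31, 95% interval -1.84 to -0.63), with an adjusted p of 0.00679 from DESeq2 (the authors' deposited table) (n = 4 and 4). Per kilobase Acvr1 was the lowest of the 10 receptors in these mutants, and its share of the type I receptors was 2.40% in mutants and 7.04% in controls. The call was lost when the test statistics were rescaled to the spread of all genes (adjusted p = 0.830), and no receptor was called among genes whose level, averaged over mutants and controls, lay above the table's median, which the average of Acvr1 does not reach.

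Of the other type I receptors at E11.5, Acvrl1 (chr15:101128522-101145336, plus strand) averaged 294 in mutants against 274 in controls, with a log2 ratio of 0.10 (SE 0.17) by the authors' deposited table. Acvr1b, the activin receptor ALK4 and the neighbour of Acvrl1 (chr15:101174067-101213684, plus strand), averaged 571 in mutants against 473 in controls, with a log2 ratio of 0.27 (SE 0.29) by the authors' deposited table. Neither passed the threshold. Among the type II receptors, Tgfbr2, the partner of ALK5 (chr9:116084293-116175360, minus strand), averaged 865 in mutants against 1206 in controls, with a log2 ratio of -0.48 (SE 0.24) by the authors' deposited table, with an unadjusted p of 0.0433 and an adjusted p of 0.264 from DESeq2. Bmpr2, the type II receptor of BMPs, averaged 1353 in mutants against 1750 in controls (log2 ratio -0.37, SE 0.17, adjusted p = 0.235) by the authors' deposited table. Neither passed after adjustment. Acvr2a (chr2:48814109-48903269) and Acvr2b (chr9:119402118-119434995), the activin type II receptors on the plus strand, had log2 ratios of 0.21 (SE 0.15) and 0.09 (SE 0.38). The co-receptor Eng (chr2:32646595-32682669, plus strand) averaged 291 in mutants against 378 in controls (log2 ratio -0.38, SE 0.17, adjusted p = 0.201), and Tgfbr3 averaged 2721 in mutants against 2123 in controls (log2 ratio 0.36, SE 0.34, adjusted p = 0.607) by the authors' deposited table. At an unadjusted p under 0.05, 4 of the 10 receptors passed, all lower in mutants, where 17.7% of all genes passed and 11.4% passed with a lower level.

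In the same E11.5 mutants, where 2.7% of all genes were called lower and 0.642% higher, the marker lists of 4 cell types each held members called lower. Of 17 tested pericyte markers 5 were called lower, among them Kcnj8 and Abcc9, subunits of a potassium channel gated by ATP, and 1 was called higher, the intermediate filament gene Des, with a median log2 ratio of -0.36 over the list. The 15 tested endothelial markers had a median of -0.90, and their summed level was 1193 in mutants and 2053 in controls. Erg, a transcription factor on that list, was called lower, but in E13.5 control pericytes it stood at 209% of its endothelial level. The 11 myeloid markers had a median of -0.95 and a summed level of 1257 in mutants and 2390 in controls, with Csf1r, the receptor of macrophage growth, and C1qc called lower. The 12 markers of fibroblasts and meninges had a median of -0.70, with 4 called lower and 1 higher. Scaled to the pericyte markers, which shifted all log2 ratios by 0.36 upwards, Acvr1 stayed lower and Tgfbr1, Acvrl1 and Acvr2a were called higher, 3 of the 10, where 33.8% of all genes then were. The part of cell make-up in the receptor values was not tested.

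At E13.5, Tgfbr3 was the receptor called in pericytes, 1 of the 10, where 0.388% of all 20084 tested genes were called and 0.224% were called higher. Of the 10, 4 had a log2 ratio below 0, where 49.6% of all genes did. Tgfbr3 encodes betaglycan, a co-receptor that presents TGF-beta2 and, with activin receptors, binds inhibin (chr5:107106570-107289629, minus strand). Its mean was 3492 in mutants and 2512 in controls by the authors' deposited table, 1.39-fold higher in mutants (95% interval 1.23 to 1.57). The log2 ratio was 0.48 (SE 0.09), with an adjusted p of 9.99e-05 from DESeq2 (the authors' deposited table) (n = 4 and 4). The call held under all 8 alternatives tried except a required log2 ratio of 1. At E11.5 its log2 ratio of 0.36 had a wider interval, -0.31 to 1.03.

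The other 9 receptors were not called at E13.5. Acvr1, called at E11.5, averaged 1337 in mutants against 1552 in controls, with a log2 ratio of -0.22 (SE 0.08, unadjusted p = 0.00511, adjusted p = 0.498 by DESeq2) in the authors' table as deposited. The remaining 8 had log2 ratios between -0.11 (Bmpr2, with means of 6050 in mutants and 6520 in controls) and 0.12 (Eng, 667 in mutants and 613 in controls) by the authors' deposited table. Tgfbr2, at 3659 in mutants and 3597 in controls, had a log2 ratio of 0.02 with an interval of -0.18 to 0.23. At an unadjusted p under 0.05, 2 of the 10 receptors passed, against 4.06% of all genes. Scaled to the pericyte markers, which shifted log2 ratios down by 0.12, Acvr1 was called lower as well, where 2% of all genes then were.

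The E13.5 pericyte groups also differed in Xist, the RNA that coats the inactive X chromosome of female cells, with a mean of 5.73 in mutants and 36145 in controls by the authors' deposited table. Xist had no value in E11.5 pericytes or in E13.5 endothelial cells, so it could not be compared there. None of the 10 receptor genes lies on the X chromosome, which does not settle whether the sex of the embryos bears on their values. Of 17 pericyte markers at E13.5, Des and Cox4i2 were called higher and Rgs5 lower, where 0.224% of all genes were called higher and 0.164% lower. The 17 endothelial markers had a median log2 ratio of 0.23, with Erg called lower, the marker at 209% of its endothelial level in control pericytes. The sexes of the embryos are not in the labels. Xist differed along with genotype, so a part of sex in the receptor values cannot be told apart from genotype and was not tested.

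In E13.5 endothelial cells all 10 receptors had a log2 ratio below 0 (9 of 10 once scaled to endothelial markers, with Tgfbr1 above 0), where 51.7% of all 18132 tested genes did, and 1 of the 10 was called, where 7.3% of all genes were called and 2.19% were called lower. Bmpr2 (chr1:59763400-59879014, plus strand) averaged 2823 in mutants against 3455 in controls by the authors' deposited table, 1.22-fold lower in mutants. The log2 ratio was -0.29 (SE 0.10, 95% interval -0.48 to -0.10), with an adjusted p of 0.0447 from DESeq2 (the authors' deposited table) (n = 3 and 5). This call lay at the threshold: the call was lost with no filter on low genes, and the adjusted p was 0.0789 after scaling to the median ratio and 0.657 with the spread rescaled.

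The receptor median in endothelial cells was -0.31, with a range of -0.60 to -0.11, against -0.01 over all genes. Eng, the most abundant, averaged 9079 in mutants against 11442 in controls (log2 ratio -0.33, SE 0.17, adjusted p = 0.252), and Acvrl1 had 3151 in mutants and 3857 in controls (-0.29, SE 0.17, adjusted p = 0.339) by the authors' deposited table. Tgfbr2 averaged 3324 in mutants against 4021 in controls, a log2 ratio of -0.27 (SE 0.15, adjusted p = 0.293) by the authors' deposited table. Eng, Acvrl1 and Tgfbr2 thus had ratios of like size, and none passed the threshold. Tgfbr3 had the lowest ratio, with means of 772 in mutants and 1170 in controls (log2 ratio -0.60, SE 0.28, adjusted p = 0.194) by the authors' deposited table. Acvr2a averaged 739 in mutants against 957 in controls (-0.37, SE 0.17, adjusted p = 0.169), and Acvr1 495 in mutants and 589 in controls (-0.25, SE 0.11, adjusted p = 0.149) by the authors' deposited table. Acvr1b and Acvr2b, the least abundant, had log2 ratios of -0.34 (SE 0.24) and -0.36 (SE 0.27). At an unadjusted p under 0.05, 4 of the 10 receptors passed, all lower in mutants, against 20% of all genes, or 8.84% with a lower level.

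In the same libraries the 10 erythroid markers were all called higher in mutants, where 5.11% of all genes were, with a median log2 ratio of 3.94 and a summed level of 1716820 in mutants and 64010 in controls. The 20 endothelial markers had a median log2 ratio of -0.19, with 14 below 0 and Kdr called lower at -0.44 (adjusted p = 0.0209) by the authors' deposited table, and a summed level of 161993 in mutants and 185970 in controls. The 11 myeloid markers had a median log2 ratio of 0.88, and Aif1, Fcer1g and Tyrobp were called higher. Scaled to the endothelial markers, which moved all log2 ratios up by 0.19, 9 of the 10 receptors stayed below 0, Tgfbr1 came to 0.09, and none was called. Scaled to the summed means, which hold the globin RNA and moved the ratios down by 0.13, Acvr1, Acvr2a and Bmpr2 were called lower, 3 of the 10, where 8.63% of all genes then were, and the calls over all genes were 634 higher and 1565 lower, in place of 926 higher and 397 lower. The part of red cell or myeloid RNA in the receptor values was not tested.

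**Figure D3:**
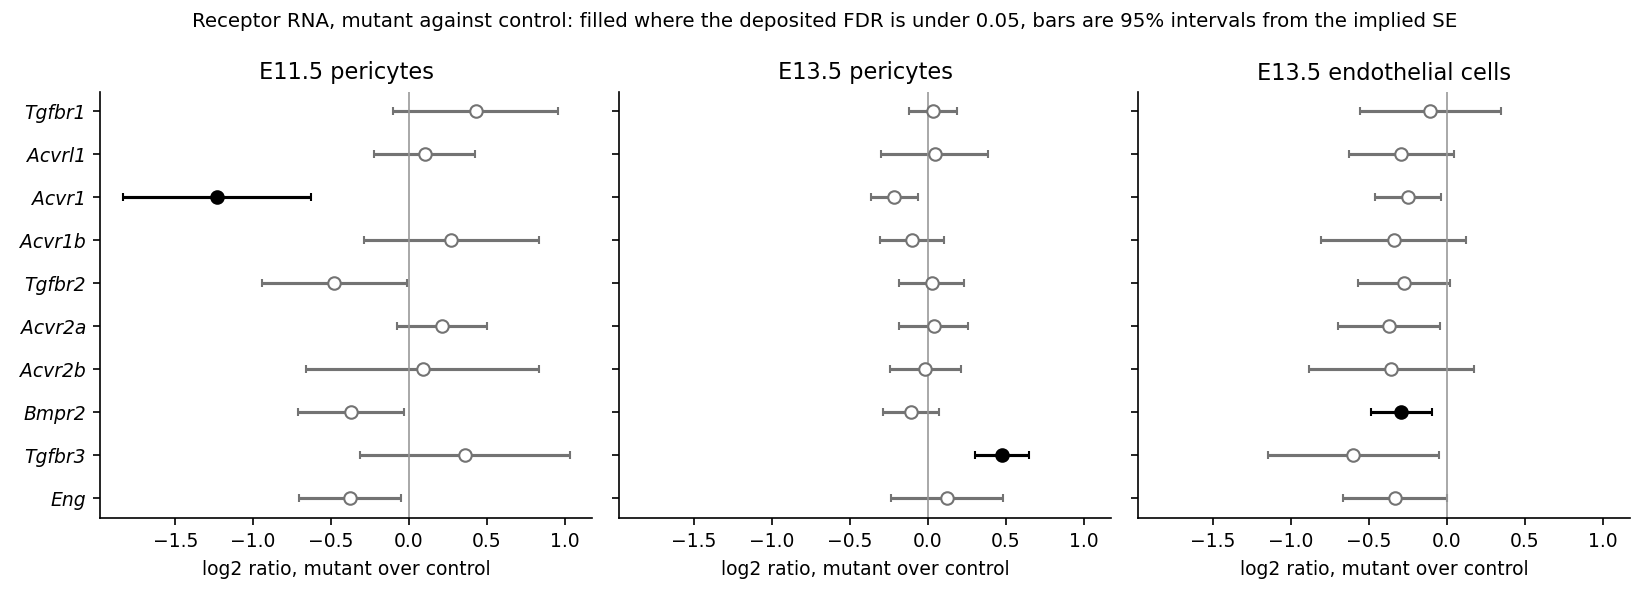
Log2 ratio of mutant to control for each receptor in the 3 comparisons, with 95% intervals from the implied SE; filled points have an adjusted p under 0.05. Acvr1 at -1.23 in E11.5 pericytes, Tgfbr3 at 0.48 in E13.5 pericytes and Bmpr2 at -0.29 in endothelial cells are filled, and in endothelial cells all 10 points lie left of 0 (9 of 10 once scaled to endothelial markers).

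**Figure D4:**
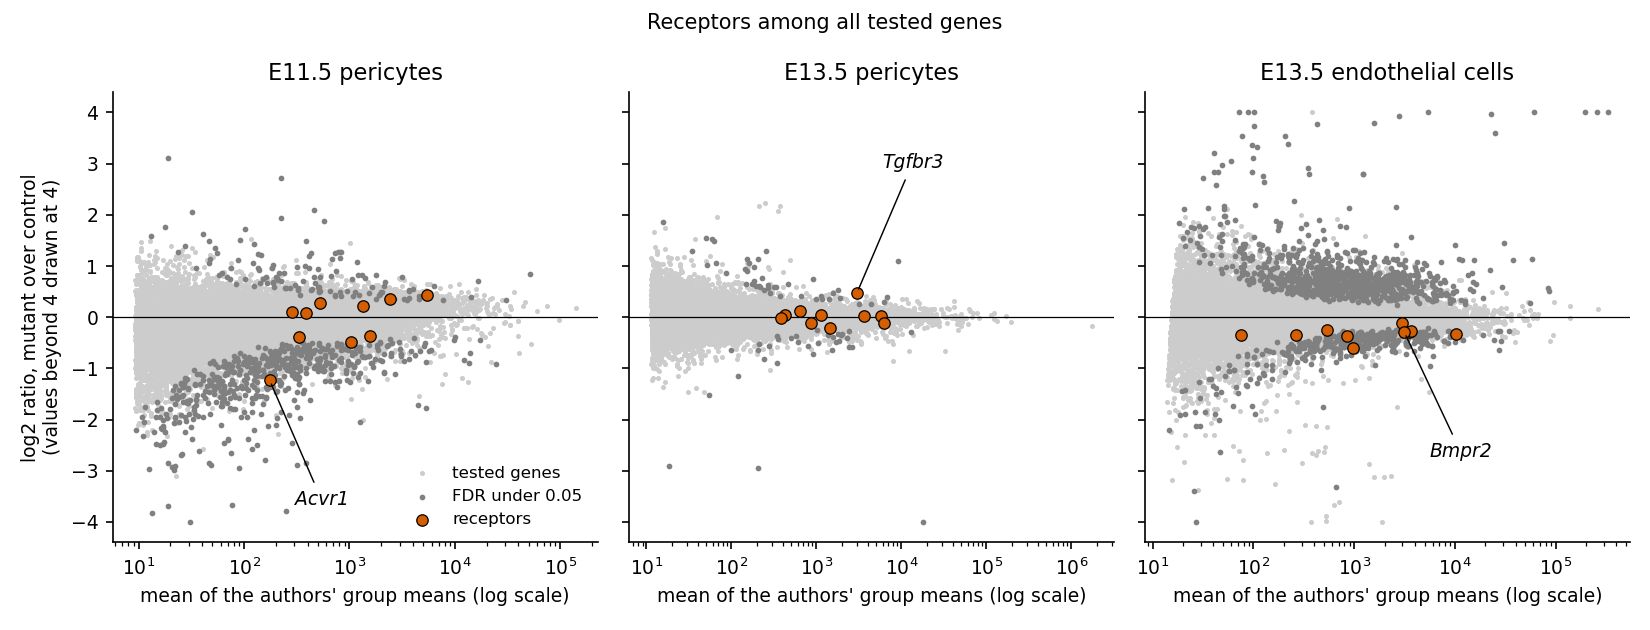
Log2 ratio of mutant to control against mean level (log scale) for all tested genes (light grey), called genes (dark grey) and the 10 receptors (orange, called ones named). Acvr1 lies at -1.23 at E11.5, Tgfbr3 at 0.48 in E13.5 pericytes, and all 10 receptors lie below 0 in endothelial cells (9 of 10 once scaled to endothelial markers).

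Whether a receptor's response differed between cell types or stages was tested on the difference of the log2 ratios, which come from separate libraries. The test treats the ratios as independent, although nothing says whether samples of both cell types came from separate litters. Between E13.5 endothelial cells and E13.5 pericytes, 1 of the 10 receptors was called, where 3.94% of 16920 genes were, and 2 of the 10 passed an unadjusted p under 0.05, where 15.6% of all genes did. Tgfbr3 had a log2 ratio of -0.60 in endothelial cells and 0.48 in pericytes, a difference of -1.08 (SE 0.29, 95% interval -1.65 to -0.50, adjusted p = 0.0117 with Benjamini-Hochberg adjustment over all genes, by a normal test across all genes on the ratios of DESeq2). The difference lost its call with both spreads rescaled (adjusted p = 0.378). Acvr2a came next, with -0.37 in endothelial cells and 0.04 in pericytes and a difference of -0.41 (SE 0.20, adjusted p = 0.299). For Bmpr2, called in endothelial cells, the difference was -0.18 with an interval of -0.45 to 0.08, so a difference between the cell types was not shown.

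Between the stages of pericytes none of the 10 receptors was called, where 1.43% of 18267 genes were, and 2 of the 10 passed an unadjusted p under 0.05, where 13.3% of all genes did. Acvr1 had a log2 ratio of -0.22 at E13.5 and -1.23 at E11.5, a difference of 1.02 (SE 0.32, 95% interval 0.39 to 1.64, unadjusted p = 0.00140, adjusted p = 0.0708 by the same test across all genes). Scaled to the summed means it passed, with a difference of 1.08 and an adjusted p of 0.0360. For Eng the difference was 0.50 (adjusted p = 0.363) and for Tgfbr2 0.51 (adjusted p = 0.380). For Tgfbr3 the difference was 0.12, with an interval of -0.58 to 0.81.

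The rest of the pathway was read from 100 other genes in 9 lists. In E11.5 pericytes 83 were tested, of which 1 was called higher and 18 lower, where 0.642% of all genes were called higher and 2.7% lower, and their median log2 ratio was -0.43. In E13.5 pericytes 87 were tested, with 1 called higher and 2 lower, where 0.388% of all genes were called in either direction. In endothelial cells 78 were tested and 1 was called, higher, where 7.3% of all genes were called, so the lists held no more calls there than genes at large. All calls are those of DESeq2 in the authors' deposited tables. The medians were -0.01 in E13.5 pericytes and -0.10 in endothelial cells, and over all genes they were -0.00 at E11.5, 0.00 in E13.5 pericytes and -0.01 in endothelial cells. Of 11 secreted antagonists tested at E11.5, 6 fell, where 2.7% of all genes did: the activin trap Fst, which averaged 43.2 in mutants against 156 in controls, Chrdl1 with 111 in mutants and 301 in controls, and the BMP antagonist Nog with 36.5 in mutants and 92.8 in controls by the authors' deposited table, besides Chrd, Grem1 and Dcn. Of 6 tested TGF-beta ligands and latency proteins 3 fell, against the same 2.7%, Tgfb1 with means of 8.91 in mutants and 34.8 in controls, Tgfb2 with 2473 in mutants and 3456 in controls, and the latent TGF-beta binding protein Ltbp3 with 91.6 in mutants and 202 in controls by the authors' deposited table.

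Among the other ligands at E11.5, the activin and inhibin subunit genes Inhba, with means of 20.7 in mutants and 159 in controls, and Inha, with 42.6 in mutants and 105 in controls, fell in the comparison of the authors' deposited table. Of 8 tested BMP ligands 2 fell, Bmp4, with 546 in mutants and 911 in controls, and Gdf6, with 28.0 in mutants and 93.0 in controls. Of the 9 tested other receptors and co-receptors, Rgmb, a BMP co-receptor, was 1.54-fold lower by the authors' deposited table (adjusted p = 0.0492 by DESeq2). No SMAD was called, of 8 tested in pericytes at either stage and 7 in endothelial cells by DESeq2, and at an unadjusted p under 0.05 the counts were 1 at each pericyte stage and 2 in endothelial cells. Of all genes 17.7% passed that p at E11.5, 4.06% in E13.5 pericytes and 20% in endothelial cells. Of 10 tested SMAD2/3 targets at E11.5, Col1a2 and Postn, both of the extracellular matrix, fell. Ccn2, a matricellular growth factor on that list, rose, where 0.642% of all genes were called higher. Of 9 tested SMAD1/5 targets Id4 fell. Of 17 tested intracellular partners of receptors, the ubiquitin ligase gene Nedd4l fell. Beside the 2.7% of all genes called lower, a single call in a list of this size was not read as a result about the list.

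At E13.5 the called genes of these lists in pericytes were Pmepa1, Skil and Lrrc32, 3 of 87 tested, where 0.388% of all genes were called. Pmepa1, which restrains TGF-beta signalling by binding SMADs, averaged 1699 in mutants against 2156 in controls, and Skil, the SMAD co-repressor SnoN, had 2108 in mutants and 3150 in controls by the authors' deposited table, both called lower. Lrrc32, which encodes GARP, a docking protein of latent TGF-beta at the cell surface, averaged 1135 in mutants against 673 in controls by the authors' deposited table, 1.69-fold higher (adjusted p = 3.10e-05 by DESeq2). In endothelial cells Gdf15 was called higher, 1 of 78 tested, where 5.11% of all genes were called higher. Its means were 84.8 in mutants and 23.3 in controls by the authors' deposited table, 3.64-fold higher in mutants.

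**Figure D5:**
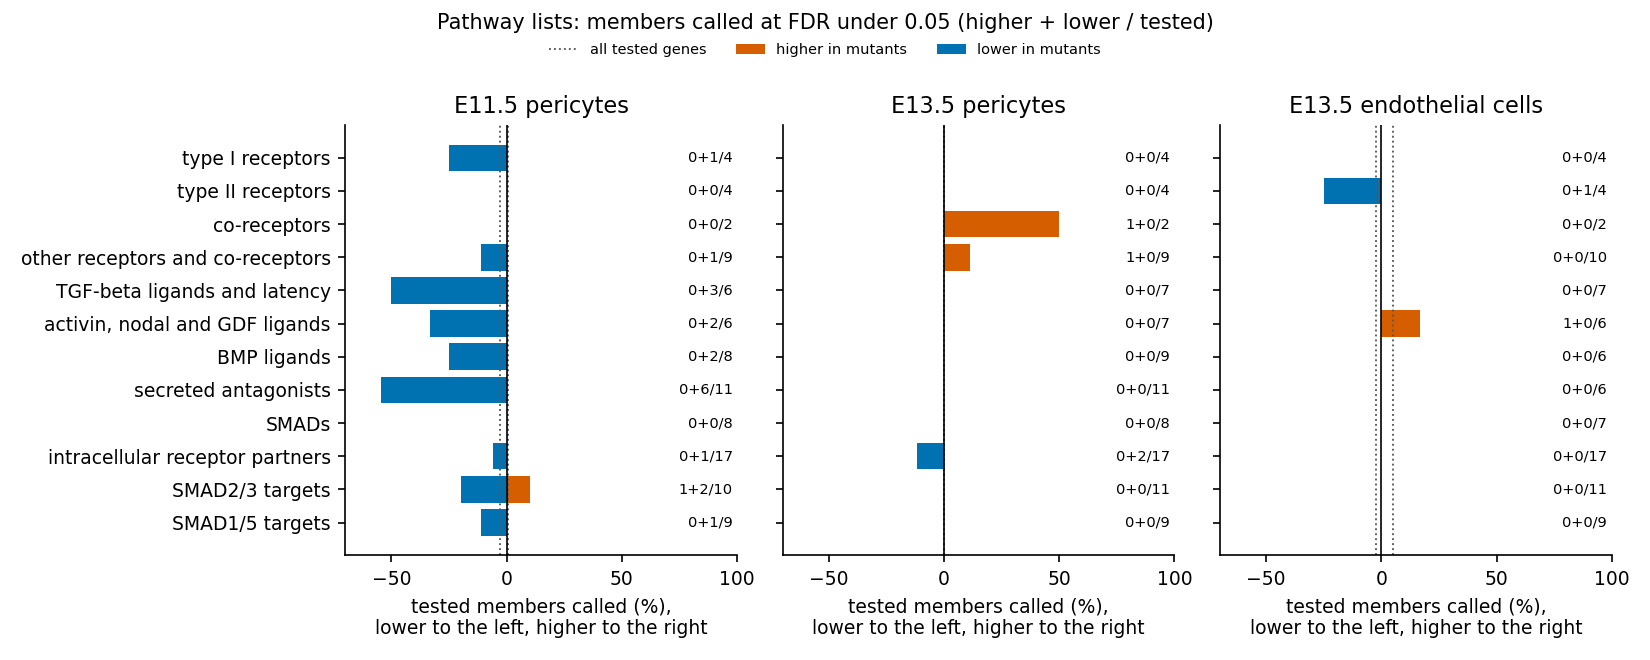
Percent of tested members called at an adjusted p under 0.05 in each pathway list, lower in mutants to the left and higher to the right, with the counts as higher + lower / tested and dotted lines at the shares over all tested genes. At E11.5, where 2.7% of all genes were called lower, the secreted antagonists (6 of 11 lower) and the TGF-beta ligands and latency proteins (3 of 6 lower) carry the largest shares; at E13.5 few members are called in either cell type, where 0.388% of all genes were called in pericytes and 7.3% in endothelial cells.

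The genes most like each called receptor were those nearest to it by Euclidean distance over the 3 log2 ratios, among 7523 genes whose control mean lay above the median of control means in every table, a bar that Acvr1 passes. Acvr1 was nearest to Pcdhgc4 (distance 0.11), Rapgef5 (0.19) and Piezo2 (0.21), the last being a mechanically gated ion channel. Bmpr2 was nearest to Atxn7 (0.04), Etnk1 (0.04) and Mef2a (0.05). Tgfbr3 had no gene as close, with Pear1 at 0.24, Zbtb46 at 0.27 and Fzd4, a WNT and norrin receptor of vessels, at 0.30. Likeness over 3 ratios is a description with no test.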

How the data were processed

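Libraries were made with the KAPA mRNA HyperPrep kit and sequenced on a NovaSeq6000, per the labels' protocols. The submitters' processing notes name Partek, Bowtie2 and DESeq2 (no versions) and the build mm10; the annotation, counting, strand setting and filters are not given in the sources used here. Per the file headers, the 3 deposited tables give for each gene a p-value, an FDR, the ratio (mutant over control), the same as a signed fold, and the least-squares means of both groups. These means were read as a signal deposited by the authors, a normalized mean count of unknown scale, so the depth per library is unknown. Tables were normalized separately. The FDR was recomputed with the Benjamini-Hochberg method and matched, with 19301 tested genes at E11.5, 20084 in E13.5 pericytes and 18132 in endothelial cells.

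Adjusted p-values are those of DESeq2 in the authors' deposited tables. The plan was to use the authors' deposited values, with a test on counts only had counts per library been given. No such counts were given, and the authors' values were used as planned. The implied SE is the log2 ratio over the normal deviate of its two-sided p, as in a Wald test; intervals are 1.96 SE to either side. Differences between tables used the root of the summed squared SE, a two-sided normal test and Benjamini-Hochberg adjustment over all genes tested in both. Levels were divided by transcript length (GENCODE annotation of mm10). Nothing says whether samples came from separate litters, so a p-value here covers only the spread among the samples taken. The members and lists were chosen with earlier results of these data known. Named were all 10 receptors, up to 3 called genes per list and comparison by smallest p, and the 3 nearest genes per called receptor. Pdgfrb, Pecam1 and Cdh5 were always named, and Chrd, Grem1, Dcn, Bmpr1a and Xist were named after their values were seen. Alternatives covered filters, thresholds, scaling, spread and transcript length. Steps were tested on simulated data, in Python 3.11.15 with scipy 1.17.1, numpy 2.4.6 and pandas 2.3.3, and plots were drawn with matplotlib 3.10.9.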

Additional observations from a re-analysis of the deposited data

Results flagged for a closer look

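Tgfbr3, which encodes the co-receptor betaglycan, differed in its response between the cell types. Mutant over control, the log2 ratio was -0.60 in E13.5 endothelial cells and 0.48 in E13.5 pericytes, and the difference of -1.08 passed a test of the difference itself across all genes (adjusted p = 0.0117). In the endothelial cells alone the ratio did not pass the threshold. With the spread of both comparisons rescaled the adjusted p of the difference was 0.378. No explanation of it was tested.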

How the results depend on the processing

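No paired analysis was possible because values per library were not analysed here; for the same reason no replicate was left out in turn, and neither alternative was run. Of the 10 receptors, 1 was called in E11.5 pericytes as reported. The count was 0 among genes above the median level (the average of mutants and controls), a filter that Acvr1 does not pass, 0 with the spread rescaled and 4 after scaling to pericyte markers. In E13.5 pericytes 1 was called as reported, 0 when a log2 ratio of 1 was also required and 2 after scaling to pericyte markers. In endothelial cells 1 was called as reported. The count was 0 with no filter on low genes, 0 with the log2 ratio of 1, 3 after scaling to the summed means, and 0 after scaling to the median ratio, with the spread rescaled or after scaling to endothelial markers. Scaling to markers was chosen after the data were seen, and the cause of these moves beyond the construction of each setting was not tested.

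Called genes of the pathway lists numbered 19 in E11.5 pericytes, and 7 above the median level, 11 with the log2 ratio of 1 and 1 with the spread rescaled. They numbered 3 in E13.5 pericytes, and 0 with the log2 ratio of 1 and 9 scaled to markers. In endothelial cells they numbered 1, and 2 with no filter, 0 above the median level, 4 at an adjusted p under 0.1, 8 scaled to the summed means, 0 with the spread rescaled and 4 scaled to markers. The difference between stages called 0 receptors and, scaled to the summed means, 1, Acvr1. The difference between cell types called 1 and, with the spreads rescaled, 0.

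Receptors that changed sign were not called in either fit. Scaled to the summed means, Acvr2b came to 0.0023 in E13.5 pericytes and the stage difference of Acvrl1 to 0.0057. Scaled to markers, E13.5 pericytes had -0.091 for Tgfbr1, -0.080 for Acvrl1, -0.097 for Tgfbr2, -0.086 for Acvr2a and -0.00033 for Eng, and endothelial cells had 0.088 for Tgfbr1. The Tgfbr1 share of type I receptors at E13.5 was 66.1% in mutant and 63.5% in control pericytes with the mean transcript length. With Bmpr1a, Bmpr1b and Acvr1c added it was 35.7% in mutants and 33.8% in controls, and 56.5% in E11.5 controls. Scaled to pericyte markers, the calls over all genes at E11.5 were 6523 higher and 289 lower, in place of 124 higher and 522 lower, and at E13.5 they were 27 higher and 401 lower, in place of 45 higher and 33 lower. With endothelial markers, 2634 were higher and 69 lower in endothelial cells. Scaled to the summed means, E13.5 pericytes had 60 higher and 26 lower calls. With the spread rescaled the calls over all genes were 2 higher and 3 lower at E11.5, 88 higher and 54 lower in E13.5 pericytes and 45 higher and 4 lower in endothelial cells. The depth per library is unknown, so its part in the precision was not tested.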
